A study of Mus musculus with 3 samples.

Results

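The genes described here mark embryonic macrophages, together with the cytokines that macrophages depend on. They were chosen by name and comprise 10 of the 55401 genes counted: the macrophage genes *Csf1r*, *Cx3cr1*, *Mrc1*, *C1qa*, *C1qb*, *C1qc*, *Adgre1* and *Spi1*, and the cytokine genes *Csf1* and *Il34*. Their counts come from bulk RNA-Seq of 3 libraries of maxillary processes, the paired facial swellings that form the upper jaw, dissected from E10.5 *wnt1cre; Rosa26Dlx2/-* mouse embryos (mid-gestation, OE replicates 1, 2 and 3, numbered in order of deposit). In these embryos Cre recombinase under *Wnt1* control opens a *Rosa26* allele with a CAG promoter, a loxP-stop-loxP cassette and *Dlx2-3xFlag*, so that *Dlx2* is overexpressed in cells derived from the neural crest. Every library analysed carries both alleles, wild-type libraries were not analysed here, and no difference between genotypes was tested. The sources used here call the RNA samples independent but do not say whether each came from 1 embryo, 1 litter or a pool, so the spread given below is that between RNA samples.

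Macrophages of the early mouse embryo descend from yolk sac precursors and enter the tissues with the circulation. They are not derived from the neural crest, in which *Wnt1*-Cre acts. Their survival depends on CSF1R, a receptor tyrosine kinase with the ligands CSF1 and IL-34, and their identity on PU.1, the transcription factor encoded by *Spi1*. They clear dying cells and express the complement component C1q and scavenger receptors.

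Of the 10 genes, 9 reached 10 counts or more in all libraries (called detected below), against 28.2% of all genes counted and 61.3% of protein-coding genes. *Il34* was the exception, with 2, 2 and 1 counts in replicates 1, 2 and 3. The 8 macrophage genes summed to 31.8, 36.9 and 43.9 counts per 1000000 counts on genes (CPM, with TMM scaling) in replicates 1, 2 and 3, a mean of 37.5 ± 6.06 (SD, n = 3). Their sum was thus highest in replicate 3 and lowest in replicate 1, a range of 1.38-fold. That range lay mostly in the C1q genes: *C1qa*, *C1qb* and *C1qc* summed to 8.52, 13.4 and 23.0 CPM, while the 5 other macrophage genes summed to 23.3, 23.4 and 20.9. In bulk tissue, fewer macrophages and less RNA per macrophage cannot be told apart.

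**Figure D1:**
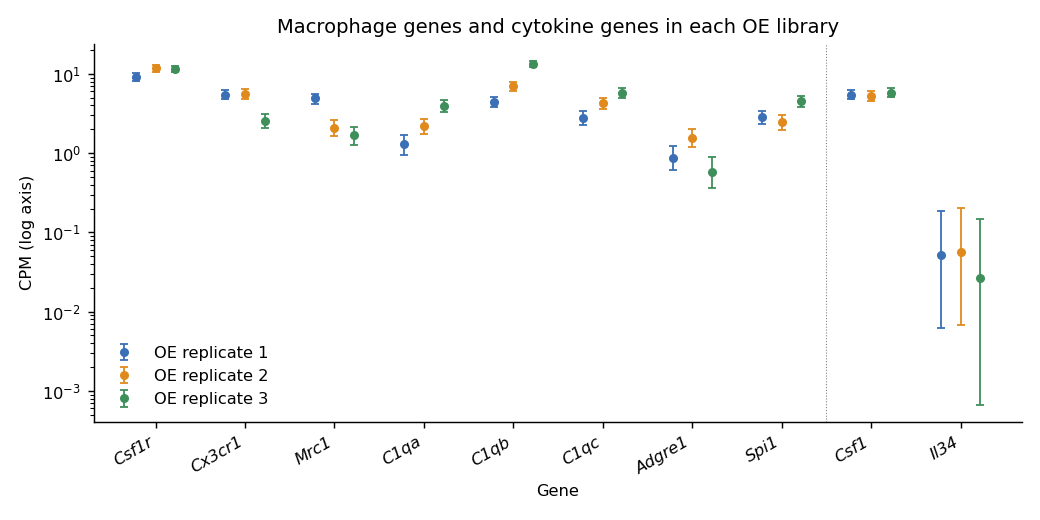
CPM of the 10 genes (log axis) in OE replicates 1, 2 and 3, with exact Poisson 95% intervals of the counts, which cover counting error only. *Csf1* overlaps in all libraries, the C1q genes are highest in replicate 3, *Cx3cr1* and *Adgre1* are lowest there, *Mrc1* is highest in replicate 1, and *Il34* rests on 1 or 2 counts a library.

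The libraries held 36544554, 35351031 and 40057435 counts on genes. *Dlx2*, the overexpressed gene, was at 235, 201 and 183 CPM, with reads of the *Rosa26* allele and of the endogenous gene counted together. Facial mesenchyme genes (*Prrx1*, *Twist1*, *Pdgfra*, *Alx1*, *Nr2f1*, *Lhx8*, *Msx1* and *Dlx1*) were detected for 8 of 8 genes and summed to 1738, 1691 and 1802 CPM, so the tissue label was borne by its markers. The libraries stood apart in other ways. *Xist*, the RNA of the inactive X chromosome, was at 671 CPM in replicate 1 and at 0.309 and 0.557 in replicates 2 and 3. The Y-linked genes *Ddx3y*, *Eif2s3y*, *Kdm5d* and *Uty* were at 0, 146 and 109 in sum. Replicate 1 thus had the pattern of female tissue and replicates 2 and 3 that of male tissue. Sex cannot be told apart from other differences of replicate 1 in the values below. The neuron list, of 6 genes, summed to 228 CPM in replicate 1 against 23.0 and 32.9 in replicates 2 and 3. The list of 6 surface and oral epithelium genes summed to 400 CPM there against 268 and 263, and the part of neurons or epithelium in the values below was not tested. Short genes were shifted up and long genes down in replicate 3, and the reverse held in replicate 1.

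*Csf1r* (ENSMUSG00000024621, chromosome 18 of GRCm38, 61100598 to 61132149, plus strand), the receptor gene, had 354, 418 and 437 counts, or 9.17, 11.7 and 11.6 CPM in replicates 1, 2 and 3 (10.8 ± 1.45, SD, n = 3). Replicate 1 was the low one and replicates 2 and 3 lay together. The counts of the 3 libraries were tested against counting noise by a chi-square test per gene over the 17115 genes that averaged 10 counts or more, which compares libraries and not genotypes. By that test 8 of the 9 genes that entered it differed between libraries by more than counting error (Benjamini-Hochberg adjusted p under 0.05), against 81.5% of all genes tested and 77.0% of the 4650 genes with mean counts from 37.3 to 403, the range of these 9. The share of the 9 was thus close to the background. *Csf1r* passed (adjusted p = 0.000967) but did not without replicate 1 (adjusted p = 0.881). The biological coefficient of variation (BCV), which edgeR estimates as a relative SD beyond counting error, is drawn toward the trend for genes of like abundance. For *Csf1r* it was 0.285, below the 0.352 of that trend. It is thus not the spread of this gene alone, whose CPM had an SD of 13.3% of the mean. Over the 9 genes the median BCV was 0.419, against 0.393 in the 4650 genes of the same range of counts. Of the exonic bases of *Csf1r*, 15.1% lie opposite exons of *Hmgxb3* on the other strand. The kit does not mark strand, so reads of the pair cannot be told apart there.

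Both ligands of this receptor were measured, and their levels were far apart. *Csf1* (ENSMUSG00000014599, chromosome 3, 107741048 to 107760469, minus strand), which encodes macrophage colony-stimulating factor, had 212, 189 and 218 counts, or 5.49, 5.31 and 5.79 CPM (5.53 ± 0.241, SD, n = 3). It had the smallest fold range of the 9 genes tested, 1.09-fold. It was also the only one of them whose libraries were not separated from counting noise (chi-square test, adjusted p = 0.700). Its BCV of 0.314 lay below the trend of 0.408 toward which such estimates are drawn, so it is not ranked against that of *Csf1r*. *Il34* (ENSMUSG00000031750, chromosome 8, 110741829 to 110805924, minus strand), the ligand known from neurons and keratinocytes, was at 0.0518, 0.0562 and 0.0265 CPM. Each of these values lies under 3 counts, the limit below which a gene was not called present, which corresponds to 0.0777, 0.0843 and 0.0796 CPM. Over the 3 libraries 619 counts of *Csf1* stood against 5 of *Il34*. Per kb of exonic length *Csf1* was 45.9-fold higher, with an exact 95% interval from 19.6 to 142 that covers counting error only. *Il34* transcript at this level was at the limit of what the depth can show.

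Per kb of exonic length, *Csf1* stood at 0.655, 0.494 and 0.545 times the level of *Csf1r* in replicates 1, 2 and 3 (0.565 ± 0.0820, SD, n = 3). The receptor was higher than the ligand in 3 of 3 libraries (exact sign-flip permutation test of the log2 ratio, two-sided, p = 0.25, the smallest that 3 libraries allow). *Ptprz1* and *Sdc1*, which encode a receptor phosphatase and a proteoglycan known to bind IL-34, were at 4.90, 4.94 and 3.13 CPM and at 207, 227 and 233 CPM. Both were thus present in all libraries while *Il34* was not above the limit. Syndecan-1 is a protein of epithelia and mesenchyme and does not mark macrophages.

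Each of the C1q genes was highest in replicate 3. They encode the A, B and C chains of C1q, which join in equal numbers to form the recognition subunit of the classical complement pathway, and they lie side by side on the minus strand of chromosome 4. *C1qb* (ENSMUSG00000036905, 136880129 to 136886187) had 171, 249 and 500 counts, or 4.43, 7.00 and 13.3 CPM in replicates 1, 2 and 3 (8.23 ± 4.55, SD, n = 3). The intervals of the 3 libraries did not overlap. *C1qa* (ENSMUSG00000036887, 136895917 to 136898803) had 50, 78 and 149 counts, or 1.30, 2.19 and 3.96 CPM (2.48 ± 1.35, SD, n = 3). *C1qc* (ENSMUSG00000036896, 136889804 to 136893065) had 108, 151 and 216 counts, or 2.80, 4.24 and 5.73 CPM (4.26 ± 1.47, SD, n = 3). In CPM all 3 genes were in the same order across the libraries, lowest in replicate 1 and highest in replicate 3. The range was 3.00-fold for *C1qb*, 3.05-fold for *C1qa* and 2.05-fold for *C1qc*. For *C1qc* this order did not hold once a trend along length and GC content, described below, was removed. The differences between libraries exceeded counting noise for each (chi-square test, adjusted p = 1.42e-41 for *C1qb*, 1.38e-12 for *C1qa* and 7.58e-09 for *C1qc*) and did so with any 1 library left out. None of their exonic bases is shared with another gene.

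Within a library the ratios between chains do not depend on its depth. Per kb of exonic length *C1qb* was 3.27, 3.05 and 3.21 times as high as *C1qa* in replicates 1, 2 and 3 (3.18 ± 0.112, SD, n = 3). This ratio stayed within its counting intervals in all libraries, the widest from 2.37 to 4.57. Of the 36 pairs among the 9 genes tested, *C1qa* and *C1qb* also lay closest in their log2 deviations over the 3 libraries, at a Euclidean distance of 0.0671. The ratio of *C1qb* to *C1qc* was 2.81, 2.93 and 4.11, so that *C1qc* followed the other chains less closely in replicate 3. *C1qc* has the longest exonic length of the 3 (1931 bases against 1088 and 1040), while the coding lengths are nearly the same (738, 759 and 735 bases). Set against coding length, *C1qb* was 1.80 ± 0.394 times as high as *C1qc* (SD, n = 3) and 3.22 ± 0.114 times as high as *C1qa*.

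Since PU.1 acts at many macrophage genes, RefSeq promoters (GRCm38.p6, from 250 bases before to 50 after the start) were searched for AGGAAGT, the purine-rich core that PU.1 shares with other ETS factors, on both strands. The letters were chosen after the sequences had been seen, so the shares below cannot show an enrichment. Promoters of *Mrc1*, *C1qb*, *C1qc*, *Cx3cr1* and *Csf1* were matched, and 3 of these 5 held the letters, against 9.27% of 32544 promoters. The *C1qc* match extends to GAGGAAGT, which 3.11% of promoters hold. All matches lie on the strand opposite to the gene, so the reverse complement is in capitals in the 61 bases printed for each, to show where these genes carry the letters. The matches of *C1qb*, *C1qc* and *Mrc1* begin 53, 195 and 211 bases before the start. A match is a description and not a measured binding site.
C1qb, chr4:136886220-136886280, minus strand: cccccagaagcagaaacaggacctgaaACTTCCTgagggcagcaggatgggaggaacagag
C1qc, chr4:136893076-136893136, minus strand: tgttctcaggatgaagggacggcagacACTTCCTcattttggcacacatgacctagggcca
Mrc1, chr2:14229176-14229236, plus strand: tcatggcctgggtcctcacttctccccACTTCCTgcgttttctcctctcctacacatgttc
The promoters of *Cx3cr1* and *Csf1* held no match in this window. The level of the factor itself is given next.

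*Spi1* (ENSMUSG00000002111, chromosome 2, 91082390 to 91115756, plus strand) had 109, 87 and 169 counts, or 2.82, 2.44 and 4.49 CPM in replicates 1, 2 and 3 (3.25 ± 1.09, SD, n = 3). Replicate 3 was highest, and the intervals of replicates 1 and 2 overlapped. The libraries differed beyond counting noise (chi-square test, adjusted p = 2.51e-06) but not without replicate 3 (adjusted p = 0.425). Relative to *Csf1r* per kb, *Spi1* stood at 0.660, 0.446 and 0.829, and against coding length at 1.02 ± 0.303 (SD, n = 3), so no order of these genes can be given.

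The surface receptors *Cx3cr1* and *Adgre1* went the other way from the C1q genes in replicate 3. *Cx3cr1* (ENSMUSG00000052336, chromosome 9, 119901616 to 120069879, minus strand), the fractalkine receptor by which yolk sac macrophages and microglia are commonly traced, had 212, 199 and 96 counts, or 5.49, 5.59 and 2.55 CPM (4.54 ± 1.73, SD, n = 3). Replicates 1 and 2 were alike and replicate 3 was lower, with no overlap of its interval with theirs. The chi-square test gave an adjusted p of 3.94e-11, and 0.898 without replicate 3. *Adgre1* (ENSMUSG00000004730, chromosome 17, 57358691 to 57483527, plus strand), which encodes the F4/80 antigen of mature macrophages, was the scarcest of the 8 macrophage genes with 34, 56 and 22 counts, or 0.881, 1.57 and 0.584 CPM (1.01 ± 0.508, SD, n = 3). It was highest in replicate 2 and lowest in replicate 3 (chi-square test, adjusted p = 0.000132, and 0.155 without replicate 2). *Cx3cl1*, the gene of the CX3CR1 ligand, was at 2.90, 4.50 and 4.54 CPM and was not low in replicate 3.

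*Mrc1* (ENSMUSG00000026712, chromosome 2, 14229392 to 14332057, plus strand), the mannose receptor CD206, had 189, 74 and 63 counts, or 4.90, 2.08 and 1.67 CPM (2.88 ± 1.76, SD, n = 3). Replicate 1 stood alone, 2.93-fold above replicate 3, while the intervals of replicates 2 and 3 overlapped. The chi-square test gave an adjusted p of 8.27e-18, and 0.248 without replicate 1. *Mrc1* is also expressed in lymphatic and sinusoidal endothelium. *Lyve1*, which such endothelium shares with fetal resident macrophages, had 12, 3 and 3 counts, and *Stab2*, which marks such endothelium, had 59, 25 and 25. Both were thus highest in replicate 1 as well, while *Stab1*, which such endothelium shares with macrophages, was lowest there at 57.3 CPM against 70.9 and 64.9. The list of 8 endothelial genes as a whole (*Pecam1*, *Cdh5*, *Kdr*, *Tek*, *Tie1*, *Emcn*, *Cldn5* and *Stab2*, all detected) summed to 319, 355 and 294 CPM and was not highest there. The part of endothelium in the *Mrc1* value was not tested.

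**Figure D2:**
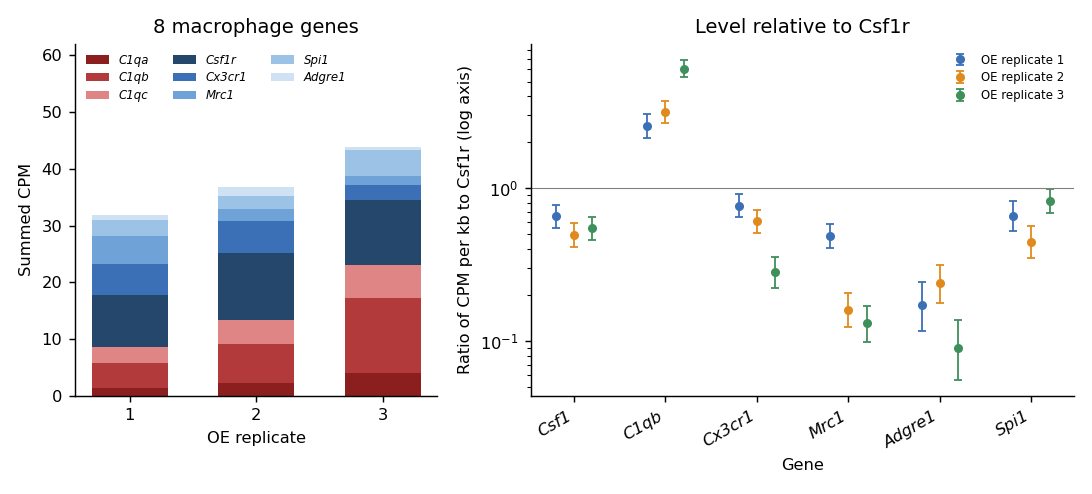
Left, CPM of the 8 macrophage genes stacked by OE replicate, with the C1q genes in red and the others in blue. Right, CPM per kb of 6 genes relative to *Csf1r* (log axis) in each replicate, with exact 95% counting intervals, where *C1qb* runs from 2.56 to 6.07 and *Cx3cr1* from 0.768 to 0.282.

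Relative to *Csf1r*, several macrophage genes differed between libraries of the same genotype, while the ratio of *C1qb* to *C1qa* given above did not leave its counting intervals. The C1q genes made up 26.8%, 36.4% and 52.4% of the summed CPM of the 8 in replicates 1, 2 and 3. Relative to *Csf1r* per kb, *C1qb* was at 2.56, 3.16 and 6.07 and *Cx3cr1* at 0.768, 0.610 and 0.282. *Mrc1* was at 0.484, 0.160 and 0.131 and *Adgre1* at 0.171, 0.239 and 0.0898 on the same scale. Against *Csf1r*, *C1qb* was thus highest and *Cx3cr1*, *Adgre1* and *Mrc1* lowest in replicate 3.

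In level per kb the 10 genes ran from 7.57 ± 4.18 CPM per kb for *C1qb* to 0.0229 ± 0.00817 for *Il34* (SD, n = 3). *C1qb* was above all others and *Il34* below all others in every library. In between the order of means was *C1qa* (2.39), *C1qc* (2.21), *Csf1r* (1.88), *Spi1* (1.21), *Csf1* (1.05), *Cx3cr1* (1.01), *Mrc1* (0.452) and *Adgre1* (0.313), and each neighbouring pair among these 8 overlapped in its range over the libraries. The order turned in part with coding length in place of exonic length, where *Cx3cr1* was at 1.19 and *Spi1* at 1.02 times the level of *Csf1r*, and *C1qc* at 1.84 times that of *C1qa*. Of the 13426 detected protein-coding genes, 41.5% were above *C1qb* per kb and 91.8% above *Adgre1*.

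Replicate 3 also differed from the other libraries along gene length, as did replicate 1 in the opposite direction. The part of this in the values above was not tested. The log2 CPM of replicate 3 (2 added as prior count) minus the mean of replicates 1 and 2 had a median of 0.55 for genes with 1008 to 1801 exonic bases, the bin of *C1qa* and *C1qb*. It was -0.30 for genes with 5693 to 7045 exonic bases, the bin of *Csf1r* and *Mrc1*. The median over all 17101 tested genes with a length was -0.03. *C1qa*, *C1qb* and *C1qc* were at 1.20, 1.25 and 0.73, which put them above 83.6%, 85.8% and 70.1% of the genes of their own length bins. With a smooth dependence on GC content and exonic length subtracted they were at 0.27, 0.39 and 0.09. The C1q values of replicate 3 were thus smaller once length and GC content were taken into account together. In replicate 1 the medians were -0.39 in the bin of *C1qa* and *C1qb* and 0.21 in that of *Csf1r*. With the length and GC trend subtracted *C1qa*, *C1qb* and *C1qc* were at -0.51, -0.51 and -0.37 there. In replicate 2 they were at 0.25, 0.13 and 0.30. Replicate 1 thus stayed lowest for each, while *C1qc* was highest in replicate 2 and not in replicate 3.

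*Cx3cr1* and *Adgre1*, in the middle of the length range, kept the size of their difference in replicate 3. *Cx3cr1* was at -1.10 before and -1.04 after the trend was removed, above 6.62% of genes of its length. *Adgre1* was at -0.95 before and -0.86 after, above 7.72% of genes of its length. *Mrc1*, one of the longest, was at -0.91 before and -0.41 after in replicate 3, while in replicate 1 it was at 1.37 before and 1.01 after. *Csf1r* (0.16 and 0.09) and *Csf1* (0.10 and 0.00) stayed close to the other libraries either way, and *Spi1* was at 0.76 and 0.21.

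**Figure D3:**
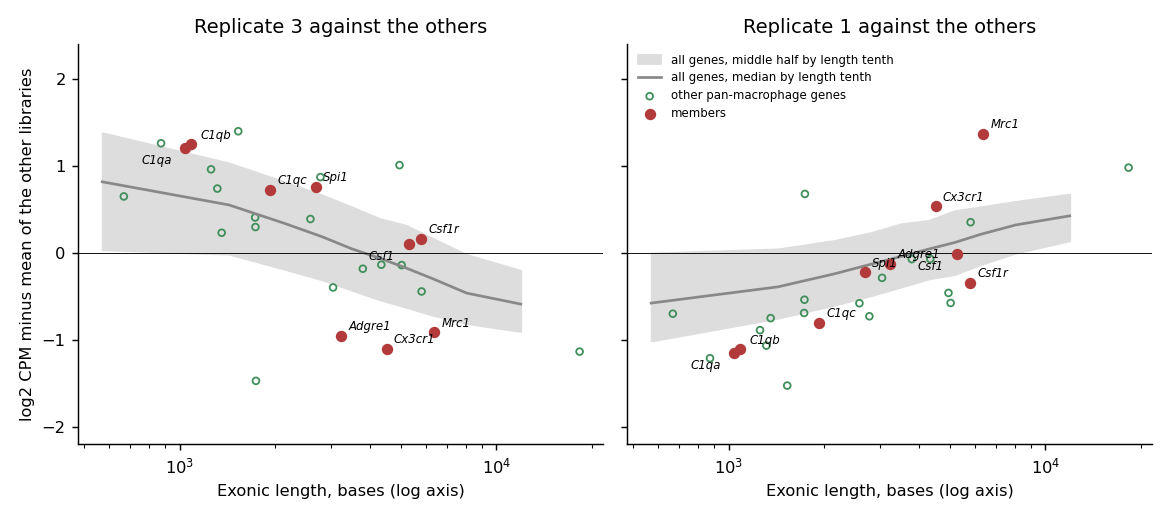
Log2 CPM of replicate 3 (left) and replicate 1 (right) minus the mean of the other libraries, against exonic length (log axis). The grey line and band are the median and interquartile range of all genes in 10 length bins, red points the 9 genes of the set that were tested and green circles other pan-macrophage genes; *C1qa* and *C1qb* lie just above the band on the left, *Cx3cr1* and *Adgre1* well below it, and *Mrc1* well above it on the right.

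Other genes of the macrophage lineage were counted from a fixed list of 18 (*Fcgr1*, *Fcgr3*, *Fcer1g*, *Tyrobp*, *Cd68*, *Ptprc*, *Aif1*, *Laptm5*, *Ctss*, *Cd14*, *Cybb*, *Itgam*, *Itgb2*, *Mpeg1*, *Cd53*, *Trem2*, *Lyz2* and *Coro1a*). Of these, 17 were detected, with *Itgam* (8, 15 and 10 counts) as the exception. The libraries differed beyond counting noise in 13 of 18, against 81.5% of all genes tested. Of the 18, 8 passed and were highest in replicate 3, 4 in replicate 2 and 1 in replicate 1. Of all genes tested, 36.4%, 11.3% and 33.8% passed and were highest in these libraries. Those with the highest CPM, which here and in the lists that follow is not scaled to length, were *Coro1a*, an actin regulator of blood cells (20.7, 27.2 and 43.4 CPM), *Laptm5*, a lysosomal membrane protein (10.3, 12.1 and 9.82), and *Cd68*, a lysosomal glycoprotein (5.67, 8.32 and 13.4). The list's median log2 difference of replicate 3 from the others was 0.34, and 0.05 once the length and GC trend was removed, against -0.03 and -0.02 over all genes. For the 8 macrophage genes it was 0.44 and 0.09.

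Genes of that list differed in direction, as 4 examples picked after their values were seen show. *Fcer1g*, with 874 exonic bases, was at 1.63, 2.84 and 5.23 CPM and *Aif1* at 0.311, 0.730 and 1.35. *Ptprc*, the pan-leukocyte phosphatase CD45 with 18313 exonic bases, was at 2.49, 1.69 and 0.903 CPM and *Cd53*, a leukocyte tetraspanin, at 1.17, 1.24 and 0.398. The first pair was highest and the second lowest in replicate 3. With the trend removed, the log2 difference of replicate 3 was 0.59 for *Fcer1g*, 0.96 for *Aif1*, -0.31 for *Ptprc* and -1.40 for *Cd53*.

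Among 12 genes of fetal resident macrophages, 8 were detected. *Stab1*, a scavenger receptor that endothelium also expresses (57.3, 70.9 and 64.9 CPM), and *Dab2*, an endocytic adaptor (41.2, 31.9 and 27.2), had the highest CPM. *Cd163*, a haemoglobin scavenger receptor of later macrophages, had 0 counts in every library. *Timd4*, a phosphatidylserine receptor, had 0, 5 and 12 counts, *Lyve1* 12, 3 and 3, and *Ms4a7* 1, 0 and 5. *Pf4*, at 2.72, 7.33 and 8.71 CPM, is shared with platelets.

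Of 9 microglia genes, 5 were detected. The highest were *Tmem119* (43.0, 57.2 and 103 CPM), *Olfml3* (10.8, 13.4 and 21.4) and *Sall1* (16.1, 14.6 and 9.11), which mesenchymal tissues also express. The purinergic receptor genes *P2ry12* and *P2ry13*, by contrast, had 16, 18 and 7 counts and 11, 14 and 9 counts. *Siglech* had 3, 19 and 5 counts. *Gpr34* had 11, 16 and 5. These 4 receptor genes of microglia were thus close to the detection limit, while *Fcrls* was detected at a mean of 2.43 CPM.

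Other white blood cells left little trace. Of 10 monocyte and granulocyte genes, 2 were detected, *Mpo* (1.24, 1.49 and 1.83 CPM) and *Csf3r* (1.17, 1.63 and 0.770). *Ccr2*, the monocyte chemokine receptor, had 1, 9 and 4 counts, and *Ly6c2*, *Flt3*, *S100a8*, *Ly6g* and *Ngp* were at or under 3 counts in every library. Of 10 lymphocyte and mast cell genes, *Cd3e*, *Cd3g*, *Rag1*, *Rag2*, *Ncr1*, *Cpa3*, *Mcpt4* and *Tpsb2* were at or under that limit, and *Cd79a* alone was detected (12, 15 and 41 counts). Per kb, *Mpo* (0.444 CPM per kb), *Cd79a* (0.417) and *Csf3r* (0.329) averaged near *Adgre1*, and every other gene of these lists was lower.

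The 10 blood progenitor genes were all detected and summed to 78.4, 140 and 92.3 CPM. All 10 differed beyond counting noise, against 81.5% of all genes tested, and 7 of them were highest in replicate 2, against 11.3%. *Gata2* (31.0, 62.1 and 40.0 CPM), *Itga2b* (7.51, 21.6 and 15.4) and *Tal1* (10.6, 18.1 and 9.05) led, and *Gata2* and *Tal1* are also active in endothelium. *Runx1*, needed for blood cell emergence, was at 5.03, 4.02 and 2.18 CPM. The 8 erythroid genes, with *Hbb-y*, *Hba-x* and *Hbb-bh1* as the highest, summed to 2144, 4009 and 4940 CPM. The erythroid sum was lowest in replicate 1 and highest in replicate 3, the same order as the macrophage sum, and the part of the amount of blood in each sample was not tested.

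**Figure D4:**
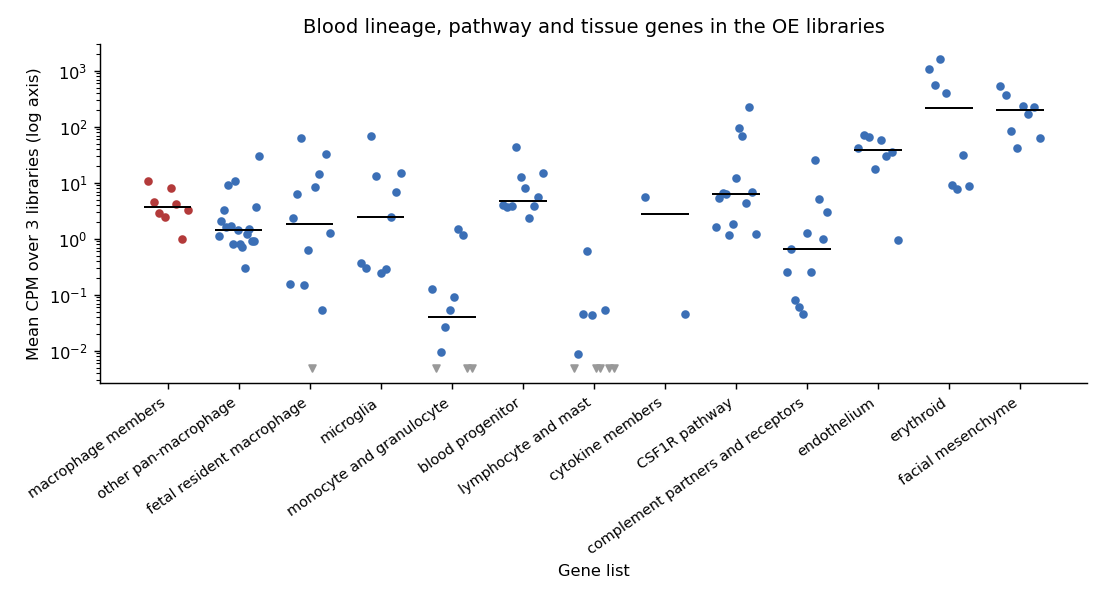
Mean CPM over 3 OE libraries (log axis) of each gene in 13 lists, with black bars at list medians of at least 0.01 CPM and grey triangles for genes at 0 counts in all libraries. The 8 macrophage genes (red) lie from 1.01 to 10.8 CPM, above most monocyte, granulocyte, lymphocyte and mast cell genes and below facial mesenchyme genes.

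Of the CSF1R pathway list, which holds signalling genes and the IL-34-binding *Ptprz1* and *Sdc1*, 13 of 13 genes were detected. The libraries differed beyond counting noise in 10 of 13, close to the 81.5% of all genes tested. Of the 13, 4 passed and were highest in replicate 1, 3 in replicate 2 and 3 in replicate 3. Of all genes tested, 33.8%, 11.3% and 36.4% passed and were highest in these libraries. Besides *Sdc1*, the highest CPM was that of the general adaptors *Grb2* (98.9, 95.2 and 91.3 CPM) and *Cbl* (90.1, 73.4 and 41.5), which most cells express. Members best known from blood cells ranged from *Plcg2*, a phospholipase (20.0, 11.2 and 6.29 CPM), to *Tyrobp*, the DAP12 adaptor (1.11, 1.60 and 2.12), and *Vav1*, an exchange factor (1.84, 2.16 and 1.51). *Vav1* and *Syk* (6.74, 7.50 and 6.48 CPM) did not pass the test (adjusted p = 0.140 and 0.248).

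Of the 10 myeloid transcription factors other than *Spi1*, 6 were beyond counting noise, against 81.5% of all genes tested. *Irf8*, which acts with PU.1, was not, at 3.37, 3.62 and 3.21 CPM (chi-square test, adjusted p = 0.650). *Cebpa* was at 3.68, 3.43 and 2.92 CPM (adjusted p = 0.206). *Id3* (262, 275 and 287 CPM) and *Zeb2* (20.7, 10.4 and 6.82), among those with the highest CPM, are expressed well beyond macrophages. Of the 10, 4 passed and were highest in replicate 3, against 36.4% of all genes tested, among them *Cebpb* at 5.54, 5.20 and 8.36 CPM.

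Genes of other complement proteins were at unequal levels. C1q binds the proteases C1r and C1s to form the C1 complex, and *C1ra* had 5, 11 and 13 counts and *C1s1* 27, 20 and 27. *C3*, the central complement protein, had 0, 4 and 5 counts, and *C2* was at or under 3 counts in every library. Of the 11 complement genes, 6 were detected. The highest were *Cd93* (31.1, 28.3 and 18.7 CPM), an endothelial and myeloid receptor, *Serping1*, the C1 inhibitor (3.58, 4.66 and 7.33), and *Masp1*, a protease of the lectin pathway (5.80, 2.11 and 1.11). Per kb, *C1ra* and *C1s1* averaged 0.0876 and 0.211 CPM per kb, below each C1q gene.

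Among 11 attractants and growth factors, *Cxcl12* (118, 58.9 and 63.0 CPM), *Vegfa* (69.9, 62.3 and 59.5) and *Tgfb1* (18.7, 22.6 and 27.5) had the highest CPM, while *Ccl2*, *Ccl4*, *Ccl12* and *Csf2* were at or under 3 counts in every library. *Csf1* was thus the only colony-stimulating factor gene among *Csf1*, *Csf2* and *Csf3* that was detected, since *Csf3* had 3, 8 and 4. Of 12 engulfment genes, 10 were detected, led by *Lrp1* (204, 239 and 203 CPM), *Mfge8* (111, 128 and 196) and *Tyro3* (41.9, 48.4 and 69.4), which many tissues express. *Havcr2* had 5 counts in each library.

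The summed macrophage level followed a pattern that many genes shared. Among 13141 genes averaging 50 counts or more, the 5 closest in Euclidean distance of log2 deviations over 3 libraries were *BC025920*, *Prickle1*, *Tchp*, *Med8* and *Gm43062*, at distances from 0.0027 to 0.0091. In all 588 genes, or 4.47%, lay within 0.1, so that likeness over 3 libraries picks out no particular gene.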

How the data were processed

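Per the labels and the study's methods, the authors aligned paired-end reads to mm10 using STAR (2.7.3a) and deposited unnormalized whole counts of reads for every gene. HTSeq (0.12.4) and FastQC stand in the submitters' processing notes. The strand setting and the annotation release are not given in the sources used here. Rows that name no gene held 14.2%, 15.7% and 16.4% of counts and were left out. Identifiers were matched to GENCODE M21 (55141 of 55401).

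CPM used edgeR 4.0.16 (TMM). There is 1 group, so no edgeR contrast was possible. Libraries were tested against counting noise by chi-square with Benjamini-Hochberg adjustment at 0.05, BCV came from an intercept-only edgeR model, and the length and GC trend from mgcv 1.9.3. In simulated counts of 17115 genes, 0% of Poisson genes were called and a BCV of 0.3 was estimated as 0.301. DESeq2 1.42.0 gave alternatives. R 4.3.3, Python 3.11.15, pandas 2.3.3, scipy 1.17.1 and numpy 2.4.6 were used.

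The genes and lists were chosen with earlier results of these data known. Genes named are the 10 members, the 3 highest and the undetected genes of each list, the nearest patterns, and further list genes picked after their values were seen. Some list genes are not reported here. Intervals and the limit of 3 counts cover counting error only. The outlying-sample test needs 4 samples and was not run.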

Additional observations from a re-analysis of the deposited data

How the results depend on the processing

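Of 215 alternative values over 43 results, 190 moved by less than the spread between libraries, by less than 1.5 times for counts, or left a call as it was. Scaling by DESeq2 or total counts changed no call, and calls were not made with upper quartile scaling. None of these scalings moved a level by more than its SD. With coding length in place of exonic length, the ratios to *Csf1r* reversed for *Cx3cr1* (1.19) and *Spi1* (1.02), and moved to 0.806 for *Csf1*. The ratios among C1q chains moved to 1.80 for *C1qb* to *C1qc* and 1.84 for *C1qc* to *C1qa* (from 0.996), because the exonic but not the coding length of *C1qc* is longer. Over exonic bases not shared with another gene, the ratio of *Csf1* to *Csf1r* was 0.479. Of the 18 other pan-macrophage genes, 8 reached 1 CPM in every library. The median log2 difference of the C1q chains in replicate 3 fell from 1.20 to 0.27 without the length and GC trend, and whether length is the cause was not tested. Across fits that each left out 1 library, the median BCV of the 9 genes ran from 0.327 (without replicate 3) to 0.541 (without replicate 2), against 0.419 in all. The number beyond counting noise was 6, 7 and 6 of 9 without replicates 1, 2 and 3, against 71.2%, 77.7% and 48.8% of all genes in the same fits. The calls of *Csf1r* and *Mrc1* rested on replicate 1, of *Adgre1* on replicate 2, and of *Cx3cr1* and *Spi1* on replicate 3. The geometric mean of the 8 macrophage genes, added after the data were seen, was 3.16, 3.69 and 3.75 CPM, a range of 1.19-fold. No paired analysis was possible because there is only 1 group. The depth does not separate *Il34* from absence, and with 1 genotype no value bears on an effect of *Dlx2*.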
